A study of Mus musculus with 51 samples.

Results

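The H3K4me3 peaks of wild-type extra-embryonic ectoderm (ExE) that favoured 1 parent's allele in both reciprocal crosses were collected and described. H3K4me3 is the trimethylated form of lysine 4 on histone H3. The deposited peak table held 40468 autosomal peaks. Of these, 23211 were informative, which required 20 or more reads for the maternal or the paternal allele in 1 of the 4 libraries. A peak was called imprinted when maternal and paternal counts differed in B6/CAST and also in CAST/B6 (edgeR quasi-likelihood test, adjusted p below 0.05 in each cross) with the same parent higher. This rule found 74 peaks, or 0.319% of the informative peaks, and the share itself is set by the rule. The paternal allele was higher at 44 peaks and the maternal allele at 30.

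ExE is the trophoblast tissue that lies next to the epiblast and contributes to the placenta. It was dissected at embryonic day 6.5 from F1 embryos of C57BL6/Babr (B6) and CAST/EiJ (CAST) mice, and each library was made by ultra low-input ChIP-seq from a pool of embryos. The mother stands first in the name of a cross, so B6/CAST embryos had a B6 mother and a CAST father, and CAST/B6 embryos the reverse. Neither cross carried a deletion, and there were 2 libraries per cross. The p-values measure the spread between libraries of such pools, since single embryos cannot be told apart within a pool.

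Genomic imprinting marks the alleles of a gene according to the parent that passed them on, so that 1 parental copy is used. At most imprinted domains the difference starts from DNA methylation that the oocyte or the sperm lays down over a control region, and the unmethylated copy of that region carries H3K4me3 and often starts a long non-coding RNA. In extra-embryonic tissues such RNAs silence genes far from the control region, and a further group of genes, called non-canonical, is imprinted without inherited DNA methylation. H3K4me3 marks active start sites, H3K36me3 marks the bodies of transcribed genes and H3K27me3 marks genes silenced by Polycomb.

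Windows of 200 bases with the most CpG sites outside annotated ends of protein-coding transcripts are shown for 6 imprinted peaks, because they show how unlike the sequences under a parental bias are. They were read from the plus strand of GRCm38, and capitals mark CpG. Peg3/Usp29 and Kcnq1ot1 are control regions methylated by the oocyte, and Meg3 and H19 lie in domains controlled by methylation from the sperm. Sfmbt2 and Smoc1 belong to the non-canonical group.
Peg3/Usp29 (chr7:6729586-6729785): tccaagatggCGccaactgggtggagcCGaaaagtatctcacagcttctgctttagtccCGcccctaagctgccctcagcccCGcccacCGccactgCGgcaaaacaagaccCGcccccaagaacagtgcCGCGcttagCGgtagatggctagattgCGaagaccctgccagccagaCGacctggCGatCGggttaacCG
Kcnq1ot1 (chr7:143295591-143295790): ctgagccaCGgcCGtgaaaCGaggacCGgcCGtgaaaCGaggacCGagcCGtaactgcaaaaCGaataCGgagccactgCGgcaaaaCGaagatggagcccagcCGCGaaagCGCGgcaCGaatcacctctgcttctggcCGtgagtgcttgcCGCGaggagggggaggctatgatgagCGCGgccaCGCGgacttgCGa
Meg3 (chr12:109528251-109528450): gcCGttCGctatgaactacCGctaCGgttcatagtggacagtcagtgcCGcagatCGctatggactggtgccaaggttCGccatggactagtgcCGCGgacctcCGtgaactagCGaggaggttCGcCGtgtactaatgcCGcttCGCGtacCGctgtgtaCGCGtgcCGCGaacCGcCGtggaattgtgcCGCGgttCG
H19 (chr7:142578116-142578315): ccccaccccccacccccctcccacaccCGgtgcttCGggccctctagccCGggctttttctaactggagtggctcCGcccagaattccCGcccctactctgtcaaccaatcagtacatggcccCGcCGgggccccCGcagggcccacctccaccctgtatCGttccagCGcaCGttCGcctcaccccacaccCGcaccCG
Sfmbt2 (chr2:10375071-10375270): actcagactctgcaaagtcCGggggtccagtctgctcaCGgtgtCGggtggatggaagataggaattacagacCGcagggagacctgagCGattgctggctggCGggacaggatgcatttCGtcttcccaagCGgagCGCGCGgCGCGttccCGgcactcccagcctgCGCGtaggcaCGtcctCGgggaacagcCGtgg
Smoc1 (chr12:81017756-81017955): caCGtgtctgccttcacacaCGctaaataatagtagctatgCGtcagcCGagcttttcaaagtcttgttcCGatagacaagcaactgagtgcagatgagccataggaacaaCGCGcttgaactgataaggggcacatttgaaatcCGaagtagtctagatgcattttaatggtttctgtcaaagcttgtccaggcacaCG
The windows of Kcnq1ot1 and Meg3 held 25 and 26 CpG sites, that of Sfmbt2 held 19, and those of Peg3/Usp29, H19 and Smoc1 held 15, 14 and 9. The hexamer TGCCGC, which is the core bound by ZFP57, a zinc finger protein that protects methylation of imprinted control regions, was searched on both strands. It occurred 2, 3 and 5 times in the windows of Peg3/Usp29, Kcnq1ot1 and Meg3 and was not among the letters of the other windows.

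Between 4250174 and 6821523 reads per ExE H3K4me3 library were assigned to an allele within peaks, and 49.1 to 50.8% of them were paternal. The median log2 ratio of paternal to maternal reads lay between -0.06 and 0.04 on every autosome in every library. The tissue was checked by H3K4me3 at the start sites of marker genes, in RPKM (reads scaled to window length and library depth). The sum over 7 ExE markers was 102 to 137 RPKM in ExE and 66.3 to 96.1 RPKM in epiblast, and the sum over 5 epiblast markers was 29.8 to 54.1 and 118 to 153 RPKM. Every ExE library was above every epiblast library at 3 of the 7 ExE markers (Tfap2c, Cdx2 and Bmp4), the reverse held at Esrrb, and Eomes was 33.8 to 45.1 RPKM in ExE and 34.9 to 47.4 RPKM in epiblast. Of the defining ExE markers, Elf5 and Esrrb were near 0 in both tissues, with at most 0.574 RPKM in any ExE and 0.841 RPKM in any epiblast library. The sum over 6 visceral endoderm markers was 36.4 to 58.4 RPKM in ExE and 15.1 to 31.3 RPKM in epiblast. The sum over 6 decidua markers was 15.0 to 26.4 and 19.8 to 31.7 RPKM, and the decidual marker Prl8a2 was at most 0.161 RPKM. The part of visceral endoderm and decidua in the parental bias was not tested, and fewer cells of a type cannot be told apart from less mark per cell.

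All 44 paternal and all 30 maternal peaks were biased in the same direction in all 4 libraries, which the rule favours, and 2139 of the 23211 informative peaks (9.22%) had all 4 libraries on 1 side. Since this contrast chose the peaks, their sizes are given as a description. The size of the bias was measured as the share of paternal reads among the reads assigned to an allele, after scaling each allele column by its TMM library size. The higher parent held 90% or more at 17 peaks (near mono-allelic), 75 to 90% at 31 peaks (strong) and less at 26 peaks (partial). The median share of the higher parent was 81.6% over all 74 peaks, 83.1% over the paternal peaks (58.5 to 98.5%) and 78.7% over the maternal peaks (60.1 to 94.5%). Of the near mono-allelic peaks 13 were paternal and 4 maternal. The joint fit over both crosses gave a median absolute log2 ratio of 2.27 at the imprinted peaks and 0.11 over the informative peaks. Libraries of 1 cross varied little, with a median SD of the share of 2.61 percentage points in B6/CAST and 1.57 in CAST/B6, although the largest SD was 17.5 percentage points. Near mono-allelic peaks held 145 to 1882 reads over the 4 libraries, strong peaks 82 to 2598 and partial peaks 152 to 4486.

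**Figure D1:**
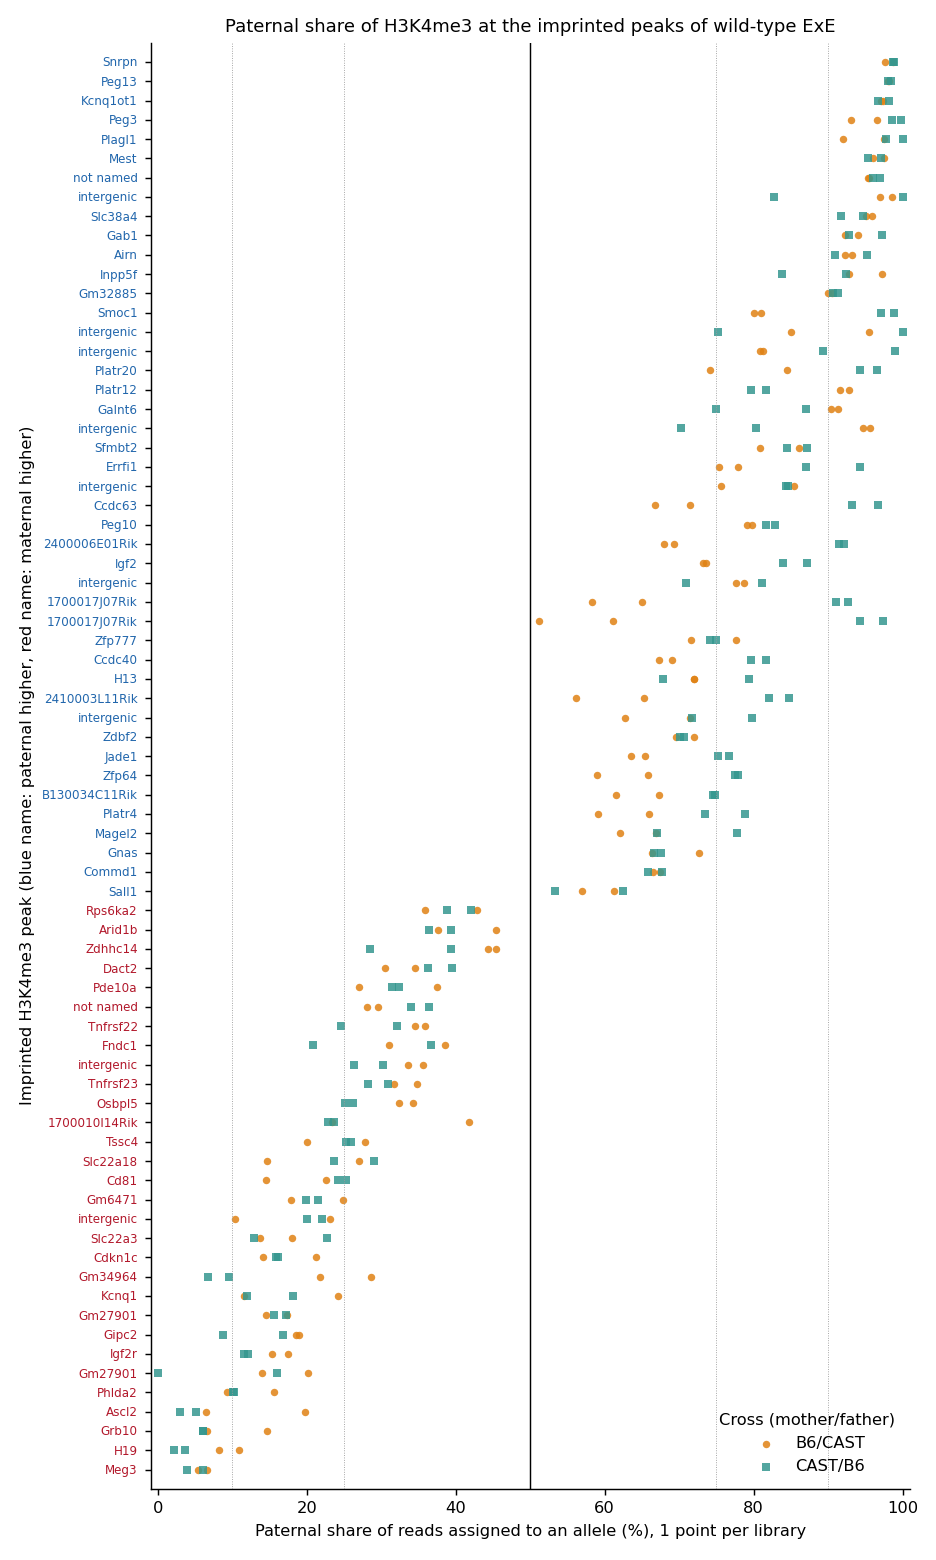
Paternal share of allelic H3K4me3 reads (%) at each of the 74 imprinted peaks, with 1 point per library, orange circles for B6/CAST and green squares for CAST/B6, ordered by the mean share. Dotted lines mark the class limits of 75 and 90% for either parent, and every point of the 44 paternal peaks lies right of the line at 50% and every point of the 30 maternal peaks left of it.

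The strongest paternal peaks lay at control regions that the oocyte methylates. At Snrpn/Snurf (chromosome 7, 60001500 to 60007000), the start of the long transcript of the domain affected in Prader-Willi syndrome, the paternal share was 98.7 and 97.6% in B6/CAST and 98.9 and 98.8% in CAST/B6 (joint log2 6.05 ± 0.17 SE). At Peg13 (chromosome 15, 72806500 to 72812000), a non-coding RNA, it was 98.0 and 98.2% in B6/CAST and 98.0 and 98.5% in CAST/B6 (log2 5.70 ± 0.17). At Kcnq1ot1 (chromosome 7, 143284500 to 143297500), the antisense RNA that silences its neighbours, it was 97.1 and 97.4% in B6/CAST and 96.7 and 98.2% in CAST/B6 (log2 5.18 ± 0.13). The lowest library of these 3 peaks was at 96.7%, and the crosses overlapped or lay next to each other. Peg3/Usp29 (chromosome 7, 6726000 to 6733500), which holds the start sites of a zinc finger protein and of a deubiquitinase, had 93.1 and 96.5% in B6/CAST against 98.6 and 99.8% in CAST/B6 (log2 5.49 ± 0.14). Plagl1 (chromosome 10, 13089500 to 13092500), a zinc finger transcription factor, had 97.5 and 92.1% in B6/CAST and 100 and 97.8% in CAST/B6 from 224 reads (log2 5.28 ± 0.36). At these last peaks the CAST/B6 libraries lay above the B6/CAST libraries, and all 4 libraries were above 90%. The larger of the per-cross adjusted p-values (edgeR) was 2.2e-08 for Plagl1 and at most 3e-15 for the other 4 peaks.

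Control regions methylated by the oocyte were then taken as a list, chosen like all lists here with earlier results of these data known. Of 21 genes at such regions 20 had an informative start-site peak, of which 16 were imprinted with the paternal allele higher, 1 (Grb10) with the maternal allele higher, and 3 (Nnat, Gpr1 and Cdh15) were not called. At another start site of Grb10 a peak just outside the rule had a mean paternal share of 95.1%, so the maternal call does not describe the whole gene. The 16 genes shared 14 peaks. Of all 14144 informative peaks with a start site, 31 were imprinted paternal (0.219%) and 24 maternal (0.170%). The median absolute joint log2 at the start-site peak with the most reads was 1.74 over this list. Mest, a hydrolase-like protein, had paternal shares of 95.4 to 97.6%, Airn, the antisense RNA of Igf2r, had 91.0 to 95.2%, and the inner start site of Inpp5f, an inositol phosphatase gene, had 83.8 to 97.3%. Peg10/Sgce, a retrotransposon-derived gene beside a sarcoglycan gene, reached 79.2 to 82.8%. A further peak of this list, with a near mono-allelic paternal bias, is not described by name.

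The 4 near mono-allelic maternal peaks were Meg3, H19, Grb10 and Ascl2. Meg3, a non-coding RNA of the Dlk1 domain, had a paternal share of 5.3 and 6.6% in B6/CAST and 3.9 and 6.0% in CAST/B6 (log2 -4.13 ± 0.11). H19 (chromosome 7, 142574000 to 142583000), the non-coding RNA beside Igf2, had 10.8 and 8.2% in B6/CAST and 3.7 and 2.1% in CAST/B6 (log2 -4.10 ± 0.14). Grb10, an adaptor that restrains insulin signalling, had 6.0 to 14.7% at the start site in this peak (chromosome 11, 12034000 to 12039500) (log2 -3.50 ± 0.34, 145 reads). Ascl2, a transcription factor needed for the placental spongiotrophoblast, had 3.0 to 19.8%. The H19 and Dlk1 domains thus each had a maternal peak at the non-coding RNA, and of the 3 genes on that list only Rasgrf1 was not called (log2 0.06 at its start-site peak).

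The non-canonical genes had paternal H3K4me3 of every size. Their list was chosen with earlier results of these data known, so its counts are a description. Slc38a4 is on this list and also among the genes at control regions methylated by the oocyte. Of 8 listed genes 6 had an imprinted start-site peak with the paternal allele higher (compared with 0.219% of all start-site peaks), 1 (Smoc1) passed the joint test alone at its start site (log2 0.78), and Gab1 was not called there (log2 -0.08). Both of these genes had an imprinted peak away from the start site. Inside an intron of Gab1 (chromosome 8, 80852500 to 80861000), which encodes an adaptor of receptor tyrosine kinases, the paternal share was 92.3 and 94.1% in B6/CAST and 92.9 and 97.2% in CAST/B6. Near Smoc1 (chromosome 12, 81017000 to 81022000), which encodes a matricellular calcium-binding protein, it was 81.0 and 80.1% in B6/CAST and 97.2 and 98.8% in CAST/B6. Sfmbt2 (chromosome 2, 10362000 to 10382500), a Polycomb group protein, had 86.1 and 80.9% in B6/CAST and 87.1 and 84.5% in CAST/B6 from 2598 reads (log2 2.49 ± 0.08, larger per-cross adjusted p = 5.8e-15). Sfmbt2 therefore had the same strong bias in either cross, whereas the Smoc1 peak was near mono-allelic only in CAST/B6. Slc38a4, an amino acid transporter, had 91.8 to 95.9%, and Platr20, a long non-coding RNA, had 74.1 to 96.6%.

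Several of the deepest peaks were partial. Jade1 (chromosome 3, 41550000 to 41592000), a subunit of a histone acetyltransferase complex, had the most reads (4486), with a paternal share of 65.4 and 63.5% in B6/CAST and 76.7 and 75.3% in CAST/B6 (log2 1.26 ± 0.06). Commd1/Zrsr1 (chromosome 11, 22971000 to 22985000) had 67.5 and 66.5% in B6/CAST and 65.8 and 67.7% in CAST/B6 from 3710 reads (log2 1.01 ± 0.06). Gnas/Nespas (chromosome 2, 174282500 to 174302000) had 72.7 and 66.3% in B6/CAST and 67.5 and 66.6% in CAST/B6 from 2012 reads (log2 1.11 ± 0.09). The 12 values of these peaks lay between 63.5 and 76.7%. Zrsr1 is a paternally expressed retrogene inside Commd1, Nespas is the paternal antisense RNA of Gnas, which encodes a G protein subunit, and the peak of H13/Mcts2 (67.8 to 79.4%) likewise joins a gene with the paternally expressed retrogene inside it.

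Sall1 (chromosome 8, 89033500 to 89056500), a zinc finger transcription factor, had the smallest bias of all, with a paternal share of 61.2 and 56.9% in B6/CAST and 62.5 and 53.3% in CAST/B6 from 2734 reads (log2 0.49 ± 0.08, larger per-cross adjusted p = 0.020). The other 4 of the 5 smallest were maternal and on chromosome 17. Rps6ka2, a ribosomal S6 kinase, had a paternal share of 35.8 and 42.8% in B6/CAST and 38.8 and 42.0% in CAST/B6 (log2 -0.60 ± 0.11). Arid1b, a subunit of a chromatin remodelling complex, had 37.7 and 45.3% in B6/CAST and 39.4 and 36.4% in CAST/B6 (log2 -0.63 ± 0.12). The 8 values of these peaks lay between 35.8 and 45.3%. Zdhhc14, a palmitoyltransferase, had 44.3 and 45.3% in B6/CAST and 28.5 and 39.4% in CAST/B6 (log2 -0.63 ± 0.09). Dact2, a Dishevelled-binding protein, had 30.5 and 34.5% in B6/CAST and 36.3 and 39.5% in CAST/B6 (log2 -0.89 ± 0.11). In the joint fit Arid1b no longer passed without B6/CAST replicate 1 or CAST/B6 replicate 2, Rps6ka2 without B6/CAST replicate 1 or CAST/B6 replicate 1, and Sall1 without B6/CAST replicate 1, and none of them lost its direction.

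Known imprinted genes were compared with the calls. Of 96 known imprinted genes 86 had an informative start-site peak. The paternal allele was higher at 26 and the maternal allele at 15 of them, 1 passed the joint test alone, and 44 were not called. The median absolute joint log2 was 0.36 over the list and 0.08 over all informative peaks with a start site, of which 0.219% were imprinted paternal and 0.170% maternal. Of the 41 imprinted genes, which shared 34 peaks, 38 had H3K4me3 on the parent whose copy is known to be expressed. The 3 exceptions were H13, Gnas and Commd1, the hosts of Mcts2, Nespas and Zrsr1. Of 13 putative imprinted genes 10 were informative, with 1 paternal (Platr20), 4 maternal (Tnfrsf22, Arid1b and Dact2 among them) and 3 called in the joint test alone. In the smaller domains, 3 of 3 informative genes of the H19 domain were imprinted, with Igf2 and Igf2os at 1 shared peak. So were 3 of 7 of the Snrpn domain (at 2 peaks), 1 of 4 of the Dlk1 domain and 1 of 3 of the Mest domain. The Peg3 domain had 2 of 6, the Peg10 domain 2 of 9 and the Gnas domain 2 of 2, in each case at 1 shared peak. In the Peg3 domain the zinc finger gene Zim1 passed the joint test alone with the maternal allele higher (log2 -0.88). Its log2 was -0.07 ± 0.19 in B6/CAST, near equality, and -1.65 ± 0.23 in CAST/B6. The crosses differed at this peak (strain term 1.61 ± 0.31), so a maternal bias in both crosses was not shown for Zim1. Members that were not called included Blcap and Nnat (log2 -0.02 at a shared peak), Ube3a (-0.11), Dlk1 (0.29), Rasgrf1 (0.06) and Ddc (-0.15).

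Imprinted peaks were joined where neighbours lay at most 1 Mb apart, and 3 or more joined peaks were called a cluster. This gave 6 clusters with 38 peaks (15 paternal, 23 maternal), 4 pairs with 8 peaks and 28 single peaks (23 paternal, 5 maternal). With a largest gap of 250 kb or 2 Mb there were 5 clusters, with 33 and 42 peaks, and over the 165 informative peaks (0.711%) called when both crosses were fitted jointly there were 9 clusters with 72 peaks, 10 pairs and 73 single peaks. The directions differed in how they were spread. Paternal peaks occurred on 16 chromosomes, whereas 17 maternal peaks lay on chromosome 7 and 10 on chromosome 17, which together held 11.5% of the informative peaks. The 3 maternal peaks elsewhere were Grb10, Meg3 and an intergenic peak near Gipc2, which had a joint log2 of -2.35 ± 0.36 from 143 reads. Only the clusters around Kcnq1ot1 and Airn held both directions.

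The largest cluster spanned 2.217 Mb of chromosome 7 (142574000 to 144791000) with 19 imprinted peaks among 33 informative ones. Its paternal peaks were Kcnq1ot1 and Igf2/Igf2os, and the other 17 were maternal. Igf2, a growth factor, had a paternal share of 73.2 to 87.2%, and H19, next to it, was the maternal peak with the largest bias of the cluster. Maternal peaks around Kcnq1ot1 included Ascl2 (log2 -3.61), a peak in Gm27901 (-3.04), Phlda2 (-3.01), a gene that restrains placental growth, and Cdkn1c (-2.35), a cyclin-dependent kinase inhibitor. Cd81, a tetraspanin (log2 -1.89 ± 0.09), Tssc4 (-1.61 ± 0.10), the ion channel gene Kcnq1 (-2.35 ± 0.26) and the transporter gene Slc22a18 (-1.77 ± 0.21) were also maternal. Farther out, the value was -1.11 ± 0.13 at Tnfrsf22 and -1.12 ± 0.20 at Tnfrsf23, both decoy receptor genes, and -1.26 ± 0.16 at the lipid-binding Osbpl5. Of 18 genes listed as the Kcnq1 domain, also with earlier results of these data known, 14 were informative. Among them 10 were maternal, 1 paternal and 3 not called, compared with 0.170% maternal and 0.219% paternal of all start-site peaks. The genes not called were Nap1l4 (-0.20), Cars (-0.10) and Dhcr7 (-0.17). The last maternal peak, in Gm34964, stood 808.5 kb beyond its neighbour, had a log2 of -2.49 ± 0.46 and rested on 82 reads.

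Chromosome 17 held 11 imprinted peaks over 9.213 Mb (4992500 to 14205500), of which Airn alone was paternal. Airn (12737000 to 12745500) had a paternal share of 93.2 and 92.2% in B6/CAST and 91.0 and 95.2% in CAST/B6 (log2 3.72 ± 0.15). Igf2r (12765000 to 12771000), the receptor that clears IGF2, had 15.3 and 17.4% in B6/CAST and 12.1 and 11.6% in CAST/B6 (log2 -2.62 ± 0.18). Slc22a3, an organic cation transporter, had a joint log2 of -2.24 ± 0.30. These neighbours formed a cluster of 0.265 Mb with opposite directions. A further cluster of 4 maternal peaks (7167500 to 8989500) held Rps6ka2, Fndc1, the phosphodiesterase gene Pde10a (log2 -1.10 ± 0.10) and 1700010I14Rik. The peak of 1700010I14Rik had the largest bias there, with a paternal share of 23.4 and 41.7% in B6/CAST and 23.7 and 22.8% in CAST/B6 (log2 -1.39 ± 0.19). Arid1b and Dact2 were the outermost peaks. The list of the Airn domain held 16 genes, of which 12 were informative. Since the list was chosen with earlier results of these data known, its counts are a description. Airn was paternal, 10 at 9 peaks were maternal (compared with 0.170% of all start-site peaks), and Smoc2 passed the joint test alone with the maternal allele higher (log2 -1.03).

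**Figure D2:**
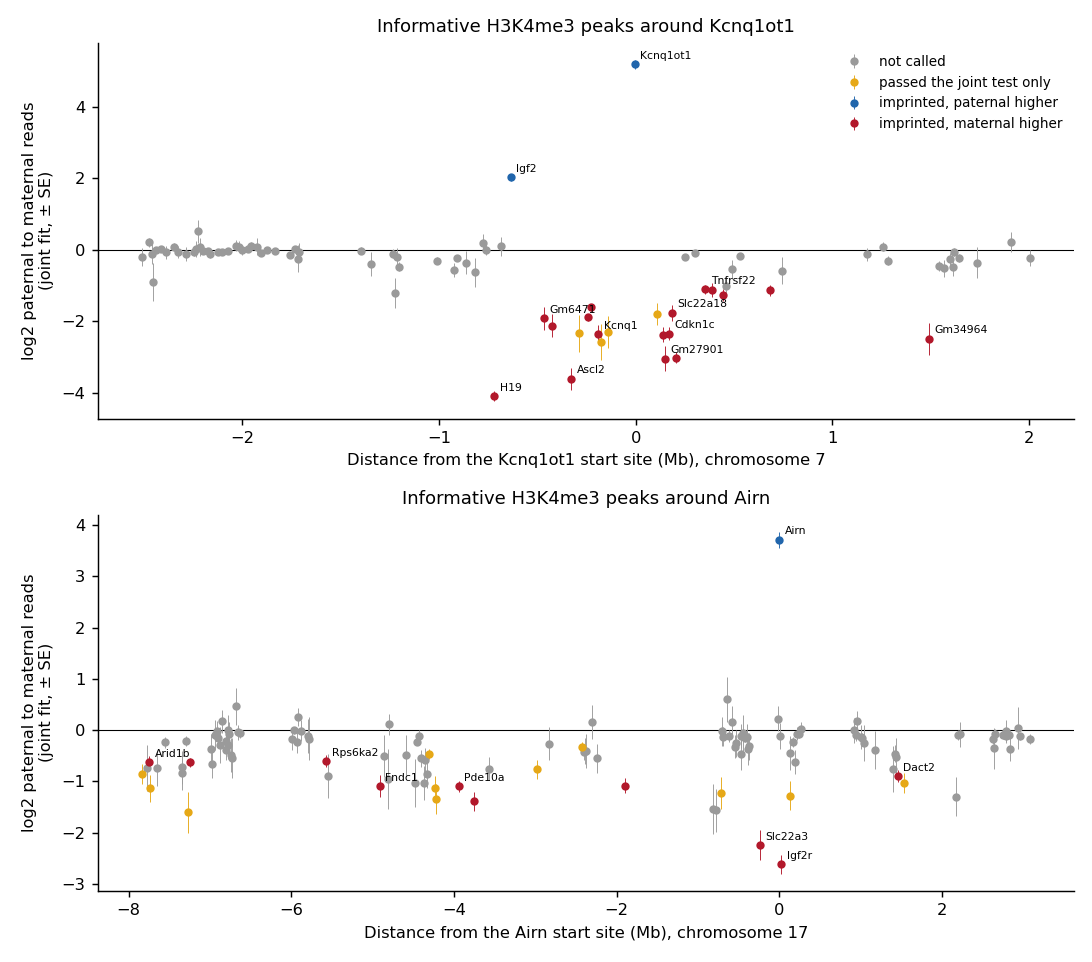
Joint log2 ratio of paternal to maternal H3K4me3 reads (points, bars are SE) at informative peaks against the distance in Mb from the start site of Kcnq1ot1 on chromosome 7 and of Airn on chromosome 17. Kcnq1ot1 at 5.18 and Airn at 3.72 stand above 0 and most imprinted peaks around them lie below, and crowded gene names are left out.

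The informative peaks that were not imprinted leaned maternal across the same stretches, a description chosen after the values were seen. Within the stretch of chromosome 17, 79 of 91 such peaks (86.8%) had a negative joint log2 with a median of -0.26, compared with 59.5% of 962 peaks on the rest of the chromosome and 56.1% over all informative peaks that were not imprinted (median -0.02). The median in single libraries was -0.22 and -0.25 in B6/CAST and -0.41 and -0.30 in CAST/B6. All 4 libraries were maternal at 32 of the 91 peaks and paternal at 2, compared with 57 and 29 of 962 on the rest of the chromosome and 1240 and 825 of 23137 over all informative peaks that were not imprinted. In the stretch of chromosome 7, 12 of 14 peaks leaned maternal, with a median of -0.43. Inside all 6 clusters, 35 informative peaks were not imprinted. Of these, 15 lay in the chromosome 17 cluster from 7167500 to 8989500, with a median joint log2 of -0.59, and 14 were those of chromosome 7. The clusters on chromosomes 2, 3 and 15 and the one around Airn held 1, 1, 2 and 2, with medians of 0.76, 0.05, 1.97 and 0.06. On chromosome 15 the library medians were 3.88 and 3.34 in B6/CAST and 0.10 and 0.24 in CAST/B6.

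The other clusters were short and paternal throughout. On chromosome 15, 5 peaks within 0.122 Mb (97046500 to 97168500) ran from Slc38a4 to the non-coding Gm32885, which had a joint log2 of 3.27 ± 0.14. The intergenic peak at 97129500 to 97133000 had the largest bias, with 96.9 and 98.6% in B6/CAST and 100 and 82.7% in CAST/B6 from 212 reads (log2 4.48 ± 0.38). On chromosome 2, 4 peaks within 0.059 Mb ran from Zfp64, a zinc finger gene, across 1700017J07Rik to an intergenic peak (169004500 to 169010000). That intergenic peak had the largest bias of the cluster, with 81.3 and 80.9% in B6/CAST and 89.3 and 99.0% in CAST/B6 (log2 3.01 ± 0.17), while Zfp64 itself had 59.0 to 77.9%. On chromosome 3, Platr4, 2400006E01Rik and Jade1 lay within 0.102 Mb. In this cluster 2400006E01Rik had the largest bias, with 69.3 and 67.9% in B6/CAST and 91.4 and 92.2% in CAST/B6. The pairs were Sfmbt2 with a peak upstream of it, Gab1 with an intergenic peak, Zdbf2 with Platr12, and Arid1b with Zdhhc14.

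Single paternal peaks also occurred outside the listed genes. A peak near Errfi1, an inhibitor of epidermal growth factor receptor signalling, had a paternal share of 75.4 to 94.3%. Galnt6, which encodes a glycosyltransferase, had 74.9 to 91.3%, Ccdc63 had 66.7 to 96.7%, 2410003L11Rik had 56.2 to 84.8% and Ccdc40 had 67.4 to 81.7%. Peaks near B130034C11Rik (61.5 to 74.8%), in an exon of Zfp777 (71.6 to 77.6%) and on chromosome 9 (118340500 to 118342500, 75.6 to 85.4%) rested on 301, 152 and 182 reads. Magel2, of the Snrpn domain, was partial (62.1 to 77.7%), and other members of that domain with an informative peak (Mkrn3, Peg12, Ube3a and Atp10a) were not called.

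The size of the bias was then compared between the crosses. The strain term of the joint fit is the difference of the parental log2 ratio between B6/CAST and CAST/B6, and it was called at 4408 of 23211 informative peaks (19%). It was called at 17 imprinted peaks, a share near this background, and the rule for imprinted peaks requires a call in each cross. At 15 of them the bias was larger in CAST/B6 and at 2 in B6/CAST, which are Cd81 and an intergenic peak of the Slc38a4 cluster. The B6 allele was favoured at 14 of the 17 and the CAST allele at 3, whereas over all called peaks the B6 allele was higher at 2241 and the CAST allele at 2167. The largest differences were at 1700017J07Rik (-4.16 on the log2 scale), Smoc1 (-3.44), Ccdc63 (-2.96), the other 1700017J07Rik peak (-2.77) and Peg3/Usp29 (-2.74). At the start-site peak of 1700017J07Rik the paternal share was 61.1 and 51.2% in B6/CAST and 94.3 and 97.4% in CAST/B6, so that 1 B6/CAST library was close to equality. At Jade1 (-0.80), Igf2/Igf2os (-1.12) and Zfp64 (-1.03) the shift was smaller than the joint log2 itself (1.26, 2.02 and 1.28). Without B6/CAST replicate 1, CAST/B6 replicate 1 or CAST/B6 replicate 2 the count over all peaks fell to 2457, 2621 and 2601.

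**Figure D3:**
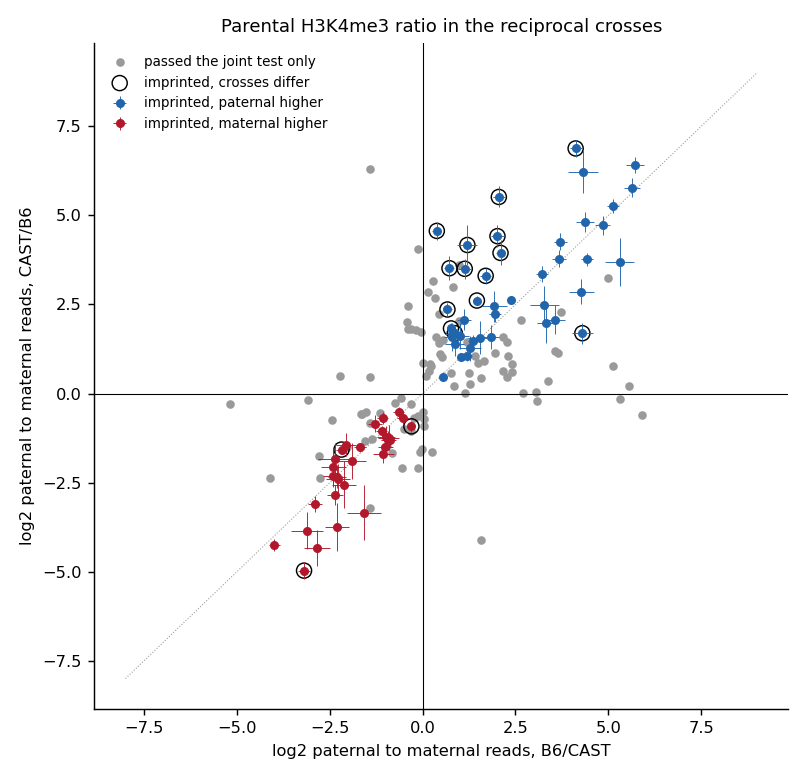
Log2 ratio of paternal to maternal H3K4me3 reads in B6/CAST (x) and CAST/B6 (y) at the 74 imprinted peaks (blue paternal, red maternal, bars are SE) and at 91 peaks that passed the joint test alone (grey). Open rings mark the 17 imprinted peaks at which the crosses differed, of which 15 had the larger bias in CAST/B6.

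The joint fit over both crosses called 165 peaks (0.711%). All 74 imprinted peaks were among them, and 91 others (56 paternal, 35 maternal) had not passed in both crosses alone. Of the 91, 60 had all 4 libraries in 1 direction and 44 also differed between the crosses. With the library as a block, the joint fit called 256 peaks. Without B6/CAST replicate 1, CAST/B6 replicate 1 or CAST/B6 replicate 2 it called 97, 96 and 108. Within 1 Mb of an imprinted peak lay 36 of the 91 peaks (39.6%), compared with 4.88% of all informative peaks that were not imprinted, and 34 of the 36 had the direction of the nearest imprinted peak. This count was also chosen after the values were seen.

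Among those 91 peaks a few added a start site or a region to a known locus. At another start site of Grb10, the peak at 12025000 to 12028000 of chromosome 11 had a paternal share of 100 and 95.4% in B6/CAST and 100 and 85.1% in CAST/B6 from 52 reads (log2 4.11 ± 0.72), opposite to the maternal peak of the same gene at 12034000 to 12039500. A peak 29.4 kb upstream of Rasgrf1 (chromosome 9, 89878500 to 89880500) had 6.3 and 3.8% in B6/CAST and 19.1 and 0.0% in CAST/B6 from 67 reads (log2 -3.26 ± 0.72). Rasgrf1, a guanine nucleotide exchange factor, is imprinted through methylation from the sperm. Their joint adjusted p-values (edgeR) were 1.5e-04 and 0.0067. A peak 4820 bases from Slc38a4 had 98.9 and 95.1% in B6/CAST and 59.7 and 70.5% in CAST/B6, and a peak near Amigo2 had 93.7 and 89.8% in B6/CAST and 65.4 and 74.1% in CAST/B6. These last 2 differed between the crosses. Both intronic peaks of Kcnq1 named here (log2 -2.59 ± 0.51 at 143119000 and 7.1 to 22.1% paternal at 143153000) and Tspan32os (-2.34 ± 0.52, with B6/CAST replicate 2 at 46.2% and the other libraries at 7.3 to 10.7%) were maternal peaks of the Kcnq1ot1 domain, and an intronic peak of Sfmbt2 (2.34 ± 0.51) was paternal. Exonic peaks of Tenm3 (3.00 ± 0.70) and Dpy19l1 (2.37 ± 0.51) were paternal as well. Each of the 10 rested on 52 to 172 reads, and all but Grb10, Slc38a4 and Amigo2 lost the call in at least 1 alternative fit.

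The limit of the rule was seen at the peaks on either side of it. Just inside, the larger per-cross adjusted p (edgeR) was 0.044 for Rps6ka2, 0.043 for Zdhhc14 and 0.040 for Zfp777. Just outside, it was 0.063 for a peak next to Gm32885, and 0.071 for an intronic peak of Kcnq1 and for the paternal peak of Grb10, which had a mean paternal share of 95.1%. The count of 74 fell to 47 without B6/CAST replicate 1 and to 44 with DESeq2 in place of edgeR. DESeq2 called 16 of the 17 near mono-allelic, 18 of the 31 strong and 10 of the 26 partial peaks.

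H3K36me3 was read over the genes whose start site lay in an imprinted peak. Of 7980 informative H3K36me3 peaks the paternal allele was higher at 0.401% and the maternal allele at 0.188% in the joint fit. Among 33 imprinted start-site peaks with H3K36me3 over the gene, 30 distinct H3K36me3 peaks were found, of which 2 covered genes of both directions (Kcnq1 with Kcnq1ot1, and Airn with Igf2r). Of the other 28, 18 were called, 16 in the direction of H3K4me3 and 2 in the opposite direction, and 10 were not called. Snrpn had a log2 H3K36me3 ratio of 2.89 ± 0.18, with paternal shares of 89.9 and 90.1% in B6/CAST and 85.1 and 87.4% in CAST/B6. Sfmbt2 had 2.56 ± 0.06, with 88.9 and 85.9% in B6/CAST and 83.6 and 82.5% in CAST/B6. Meg3 had -2.61 ± 0.05, with 12.6 and 12.1% in B6/CAST and 16.9 and 15.0% in CAST/B6. At these genes all 4 libraries of both marks favoured the same parent. The opposite cases were H13 (-0.75 ± 0.10), the host of paternal Mcts2, and Peg13 (-1.78 ± 0.38), where CAST/B6 replicate 2 had 48.0% and the other libraries 12.5 to 14.3%. Mest (0.08 ± 0.22), Inpp5f (-0.08 ± 0.05), Commd1 (-0.12 ± 0.09) and Gnas (-0.18 ± 0.09) were not called for H3K36me3 over the gene body.

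H3K27me3 overlapped an imprinted H3K4me3 peak in 49 cases, 21 paternal and 28 maternal, and several of them shared 1 broad H3K27me3 peak. Of 18592 informative H3K27me3 peaks, 4.75% were called with the paternal and 2.52% with the maternal allele higher. With library totals in place of TMM factors the paternal part of the called peaks moved from 65.3 to 44.7%, and the median log2 of all H3K27me3 peaks from -0.01 to -0.05. At the maternal H3K4me3 peaks, 27 of 28 had H3K27me3 on the paternal allele and none on the maternal allele, which counts 15 of 16 distinct H3K27me3 peaks, and the same 27 calls and no reversal were found with library totals. The H3K27me3 log2 ratio was 1.91 in the median and ranged from 0.42 to 2.89. At Slc22a3 it was 2.89 ± 0.05, with paternal shares of 86.8 and 86.5% in B6/CAST and 89.8 and 88.0% in CAST/B6. Over the broad peak of Cdkn1c, Phlda2 and Slc22a18 it was 2.43 ± 0.05 (81.5 to 86.8%), and over that of Ascl2, Cd81, Tssc4 and Kcnq1 it was 1.81 ± 0.05 (76.4 to 78.0%). Where the H3K4me3 bias of chromosome 17 was smallest, the H3K27me3 ratio was 2.52 ± 0.06 at Rps6ka2 and 2.23 ± 0.05 at Arid1b. The peak that was not called was Igf2r (0.42 ± 0.19).

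Paternal H3K4me3 peaks had H3K27me3 of either parent. Of 20 distinct H3K27me3 peaks there, 9 were paternal and 7 maternal, with a median log2 of 0.20 and a range from -2.12 to 3.12. The maternal allele carried more H3K27me3 at Sall1 (-2.12 ± 0.16), Sfmbt2 (-1.29 ± 0.06), Zdbf2 (-1.26 ± 0.07) and Platr20 (-0.64 ± 0.09), which is the allele with less H3K4me3. The paternal allele carried more of both marks at Gnas/Nespas (3.12 ± 0.22), Plagl1 (2.51 ± 0.18) and Mest (0.96 ± 0.10). An overlap of any length was counted, and the overlapping H3K27me3 peak with the most reads was taken. The marks can therefore lie on different parts of a peak. At Sfmbt2 the paternal share of H3K27me3 was at most 30.9% in every library. At Plagl1 it was 86.2 and 81.0% in B6/CAST and 86.5 and 85.2% in CAST/B6. At Slc38a4 the crosses were apart, with 52.9 and 35.3% in B6/CAST and 85.7 and 96.0% in CAST/B6 (1.46 ± 0.40). Igf2/Igf2os shared a broad paternal H3K27me3 peak with H19 (1.08 ± 0.05). Small ratios such as 0.24 at Ccdc63 and -0.16 at Ccdc40 also passed the test. With library totals 8 of the 9 paternal calls remained, and no called direction changed. The number of H3K27me3 peaks called over the genome fell from 1352 to 575, 771 and 570 without B6/CAST replicate 1, B6/CAST replicate 2 and CAST/B6 replicate 1.

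**Figure D4:**
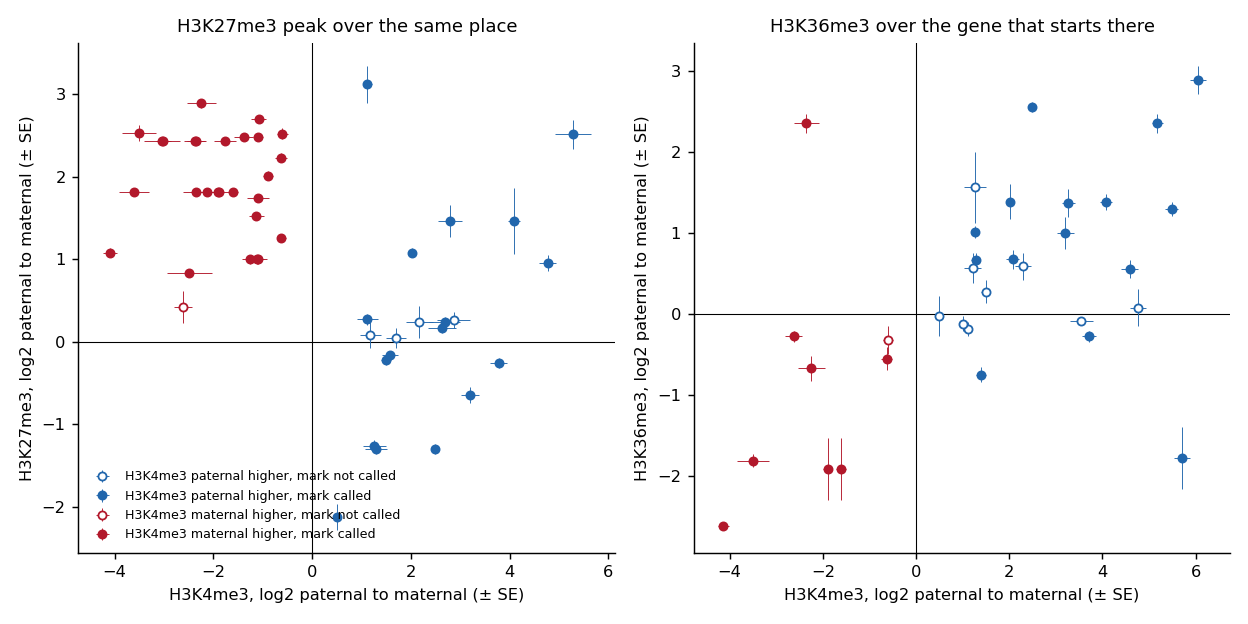
Joint log2 ratio of paternal to maternal reads for H3K27me3 (left, peaks that overlap) and H3K36me3 (right, over the gene that starts there) against that for H3K4me3 at imprinted peaks, with SE bars. Filled points passed the test for the other mark, 27 of 28 red points on the left lie at called paternal H3K27me3, and points at the same height share 1 broad peak.

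The epiblast of the same embryonic day was compared as the sister tissue, with 1364507 allelic reads in its shallowest library (CAST/B6 replicate 3). All 74 peaks overlapped an epiblast H3K4me3 peak, and the epiblast ratio had the same direction at 44 of 44 paternal and 28 of 30 maternal peaks. The median log2 of the paternal peaks was 2.06 in epiblast and 2.51 in ExE, and that of the maternal peaks was -0.43 and -1.87. The epiblast log2 was at least 0.5 of the ExE log2 at 33 of 44 paternal and 9 of 30 maternal peaks. Epiblast ratios are imprecise where the mark is weak. Mean total H3K4me3 in epiblast ranged from 0.32 RPKM at the intergenic peak paired with Gab1 to 21.8 RPKM at Arid1b. Total H3K4me3, read in RPKM without regard to the allele, was higher in every ExE library than in every epiblast library at 14 of the 74 peaks (13 paternal), compared with 13.7% of all informative peaks, and lower in every ExE library at 11, compared with 9.99%. The tissue by parent interaction was called at 10 of 21830 shared informative peaks (0.0458%), of which 8 were imprinted in ExE. With the library as a block it was called at 25 peaks. It was called at 2 to 6 peaks without CAST/B6 epiblast replicate 2 or any single ExE library. At Sfmbt2 the paternal share in epiblast was 64.7 and 58.4% in B6/CAST and 54.6 and 67.4% in CAST/B6, all below the ExE libraries (interaction 1.86 ± 0.19 on the log2 scale, adjusted p = 2.5e-06 with edgeR). At Ascl2 it was 40.3 and 57.4% in B6/CAST and 60.0 and 43.8% in CAST/B6, around equality (interaction -3.65 ± 0.50, adjusted p = 4.3e-04). At Cd81 it was 43.2 to 45.7% (interaction -1.53 ± 0.18). These libraries did not overlap with ExE. Tssc4 (-1.16 ± 0.18), the peak near Gm27901 at 143437000 to 143439500 (-1.64 ± 0.29), Pde10a (-1.01 ± 0.17), Igf2r (-1.83 ± 0.34) and Jade1 (1.07 ± 0.20) made up the rest.

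The 10 maternal peaks of chromosome 17 had log2 ratios from -0.76 to 0.08 in epiblast and from -2.62 to -0.60 in ExE, although the interaction passed the threshold only at Pde10a and Igf2r. Snrpn/Snurf, Kcnq1ot1, Peg13 and Meg3 were near mono-allelic in both tissues. In epiblast Snrpn/Snurf had a paternal share of 97.2 to 99.6%, Kcnq1ot1 96.3 to 99.2%, Peg13 97.1 to 100% and Meg3 1.7 to 4.2%. At Cdkn1c (log2 -2.32 ± 0.26 in epiblast) and Slc22a18 (-1.97 ± 0.37) no difference between the tissues passed the threshold, with interactions of 0.01 ± 0.35 and 0.24 ± 0.48. Sall1 was at 48.9 to 51.4% in epiblast (interaction 0.46 ± 0.15, not called). The interaction was also called at the start-site peaks of Mkrn3 (62418500 to 62421500) and Peg12 (62461500 to 62465500) on chromosome 7, which were not called in ExE, with log2 2.80 and 2.03 in epiblast and -0.04 and 0.15 in ExE.

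**Figure D5:**
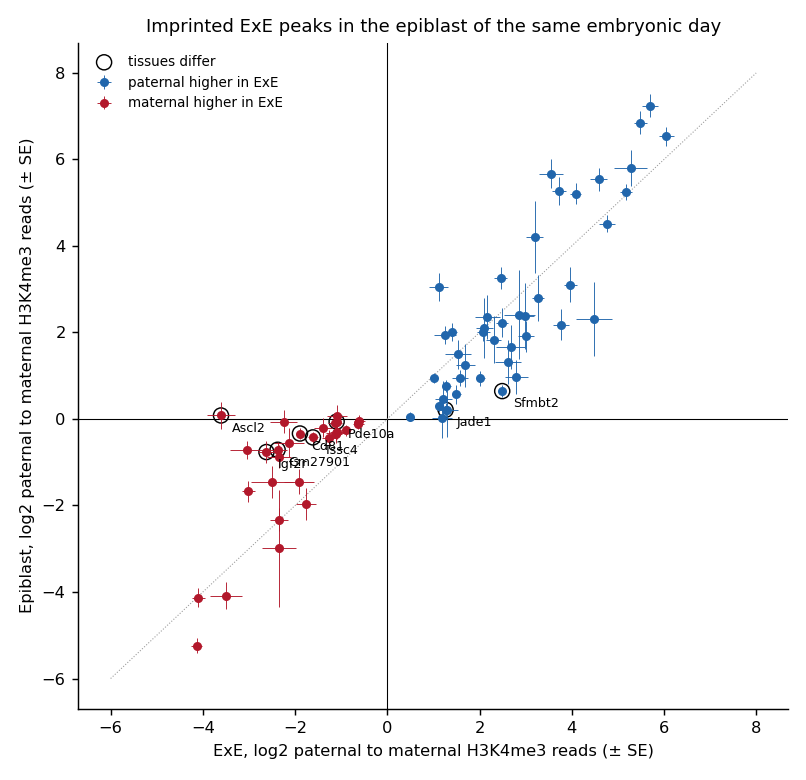
Joint log2 ratio of paternal to maternal H3K4me3 reads in ExE (x) and in epiblast (y) at the 74 peaks imprinted in ExE, with SE bars and the line of equality. Paternal peaks (blue) have medians of 2.51 and 2.06 and maternal peaks (red) of -1.87 and -0.43, the epiblast value is at least 0.5 of the ExE value at 33 of 44 paternal and 9 of 30 maternal peaks, and rings mark the 8 peaks at which the tissues differed.

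The sequence under the peaks was described last. A start site lay in 55 of the 74 peaks (74.3%) and in 60.9% of all informative peaks. Of the others, 16 were intergenic, 2 exonic and 1 intronic. TGCCGC on either strand occurred in 54 of 74 imprinted peaks (73.0%), in 59.1% of all informative peaks and in 71.0% of the informative peaks with a start site. By size it occurred in 17 of 17 near mono-allelic, 17 of 31 strong (54.8%) and 20 of 26 partial peaks (76.9%). The classes also differed in start sites, which lay in 88.2% of near mono-allelic, 58.1% of strong and 84.6% of partial peaks. Near mono-allelic peaks were 6000 bases long in the median, and informative peaks 4500. The median density of TGCCGC was 0.91 per kb in near mono-allelic, 0.11 in strong and 0.27 in partial peaks. It was 0.15 in all informative peaks and 0.22 in those with a start site. The most copies were at Gnas/Nespas (16), Mest (14), Meg3 (11) and Snrpn/Snurf (10). Of the peaks of the non-canonical genes, Sall1 held 9, Jade1 5, and Sfmbt2, the intronic Gab1 peak and Slc38a4 2 each, and Smoc1, Platr20 and Zfp64 had no match. The observed to expected CpG ratio was 0.36 in the median of the imprinted peaks, with 0.43 at maternal and 0.33 at paternal peaks. It was 0.33 over all informative peaks and 0.39 over those with a start site.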

How the data were processed

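H3K4me3, H3K36me3 and H3K27me3 were profiled by ultra low-input ChIP-seq in pools of E6.5 ExE and epiblast. The deposited counts are raw read counts per peak and parental allele. Per the methods and the submitters' processing notes, the authors trimmed reads with Trim Galore (0.4.4 in the notes; the methods give another version, stated for RNA-seq), aligned them with Bowtie2 (2.3.2) to GRCm38 with strain SNPs masked, removed duplicates, split reads by allele with SNPsplit and merged chromstaR peaks called per cross and tissue. The deposited RPKM values are window signals made by the authors without regard to the allele. A SNP must lie in a read for it to be counted, so regions with few SNPs were not informative. Coordinates are given as the files give them, and genes are from GENCODE.

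Counts were tested with edgeR (4.0.16, R 4.3.3) quasi-likelihood fits with TMM factors, within each cross and jointly with parent and strain terms over 8 allele columns. The tissue fit used 16 columns, and each column of H3K36me3 and H3K27me3 was tested likewise. P-values were adjusted (Benjamini-Hochberg) over all informative peaks, and 0.05 was the threshold. Single-library log2 values had 0.5 counts added. Maternal and paternal columns of 1 library come from the same embryos, and their deviations from the group means correlated at 0.287 (B6/CAST) and 0.263 (CAST/B6) over 11268 peaks, so a fit with the library as a block was run as an alternative. Other alternatives were library totals, DESeq2 (1.42.0), other filters on low counts, a threshold of 0.01, leaving out each library, leaving out chromosomes 3 and 11, and other gaps for clusters. Scripts were tested on simulated data. The number of libraries and the allelic depth limit the precision.

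Peaks were named by the genes that start in them, otherwise by the nearest gene within 10 kb, otherwise by position. Library values are given for the 5 peaks with the largest bias, the 5 with the smallest, the 5 with the most reads and the most biased peak of each direction in each cluster. The 10 joint calls with the largest ratio and all 4 libraries in 1 direction have library values or the joint log2 alone. Other values were picked after they were seen. The members and the lists (known and putative imprinted genes, germline control regions, non-canonical genes, domains and tissue markers) were chosen with earlier results of these data known. Sequences were read with samtools (1.23.1) from the RefSeq GRCm38 assembly. Libraries with a maternal deletion, the epiblast tables of H3K36me3 and H3K27me3 and the peak lists were not used here. Some imprinted peaks are counted and not reported by name here. Python (3.11.15), numpy (2.4.6), pandas (2.3.3) and matplotlib (3.10.9) were used.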

Additional observations from a re-analysis of the deposited data

Results flagged for a closer look

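The parental log2 ratio of H3K4me3 differed between the reciprocal crosses at 17 imprinted peaks (edgeR, strain term of the joint fit). The difference, B6/CAST minus CAST/B6, was negative at 14 peaks. On chromosome 2 it was -1.03 at Zfp64, -2.77 and -4.16 at the peaks of 1700017J07Rik and -1.82 at the intergenic peak from 169004500 to 169010000. It was -2.34 at 2400006E01Rik, -0.80 at Jade1, -1.58 at Errfi1, -2.96 at Ccdc63 and -2.74 at Peg3/Usp29. It was -1.12 at Igf2/Igf2os, -0.58 at Cd81, -2.38 at Platr20, -1.66 at 2410003L11Rik and -3.44 at Smoc1. It was positive at H19 (1.82), at the intergenic peak of chromosome 15 from 97125000 to 97128000 (2.63) and at Zdhhc14 (0.65).

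The ratio differed between the tissues at 8 imprinted peaks (edgeR, interaction of tissue and parent). ExE minus epiblast was 1.86 at Sfmbt2 and 1.07 at Jade1 on the log2 scale. It was -3.65 at Ascl2, -1.53 at Cd81, -1.16 at Tssc4, -1.64 near Gm27901, -1.01 at Pde10a and -1.83 at Igf2r.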

How the results depend on the processing

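Of the 74 imprinted peaks, all had the same direction in the joint fit under every alternative in which they were tested. The count of 74 was 44 with DESeq2 and 47 to 65 without single libraries. The joint count of 165 was 256 with the library as a replicate block, 97 with DESeq2 and 96 to 124 without single libraries. The count of cross differences was 2457 to 3110, that of H3K27me3 peaks 570 to 1010 and that of tissue differences 2 to 14 without single libraries, and the last was 25 with the library as a block. The block moved no other count by more than 1.5 times (76 imprinted peaks, 6099 cross differences, 53 H3K36me3 and 1884 H3K27me3 peaks). Of 227 values of the 21 named imprinted peaks 220 kept their side of the threshold and 7 lost the call. Of 89 values of the 10 named joint calls 61 kept it and 28 lost it. None reversed. The cause of the lower counts with DESeq2 was not tested. Peaks with under 100 allelic reads, such as Gm34964, limit how firmly a bias can be stated.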
